A study of Homo sapiens with 3 samples.

Results

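Sequencing counts of single guide RNAs (sgRNAs) against 10 genes of the COMPASS family of histone H3 lysine 4 (H3K4) methyltransferase complexes were taken from a pooled CRISPR knockout screen for MHC class I (MHC-I) on K-562 cells. Of these genes, 6 encode subunits or processing factors shared by several COMPASS complexes or used to mature their catalytic subunits (WDR5, RBBP5, ASH2L, DPY30, HCFC1 and TASP1), and 4 encode subunits of the SETD1 complexes (SETD1A, SETD1B, CXXC1 and WDR82). All sgRNAs whose name begins with the symbol of a member were taken, which gave 93 sgRNAs (54 against shared subunits and 39 against SETD1 subunits) of 189398 gene-targeting sgRNAs seen in any of the 3 libraries, and 10 of 20381 genes. The rule that picks them uses no measured value. The study describes its library as holding 10 sgRNAs per gene. An sgRNA seen in none of the 3 libraries is left out of the numbers per gene and of the shares below.

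K-562 is an established human leukaemia line with little MHC-I on its surface. Cells expressing Cas9 received the Bassik Human CRISPR KO Library by lentivirus (multiplicity 0.3) and were selected with puromycin at 1 μg/mL for 72 h, begun 48 h after transduction. The 3 groups, each of 1 library, were the cells sorted with an HLA-B specific antibody for high MHC-I (HLA-B high sorted), the pool of that screen left unsorted (high-screen control) and the like pool from the screen for low MHC-I (low-screen control). The cytokine interferon-γ (IFN-γ) induces MHC-I and was given 24 h ahead of each sort. The high screen had 1 ng/mL and was sorted on days 18 and 25, and the low screen had 25 ng/mL and was sorted on days 7 and 15. All 3 groups carry Cas9 and the whole library, and the day on which each unsorted pool was harvested is not given in the sources used here. The title of the low-screen control names another antibody than the name of its deposited data, and it was taken as the low-screen pool left unsorted, whichever antibody that screen used.

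COMPASS complexes place methyl groups on H3K4, a mark of active and poised promoters. Each complex has a catalytic subunit of the KMT2 or SETD1 family that works poorly alone and is stimulated by a core of WDR5, RBBP5, ASH2L and DPY30. SETD1A and SETD1B make most of the trimethylated H3K4 at active promoters, whereas KMT2A and KMT2B, which bind Menin (MEN1) and LEDGF (PSIP1), act at developmental and bivalent promoters, where H3K4 methylation lies beside the polycomb mark.

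The sequences of the library's sgRNAs were not analysed here, since the counts name an sgRNA by gene and number. Designed sgRNAs against the catalytic SETD1 subunits were also used in other experiments of the study, and 4 of them are shown as cuts into SETD1A and SETD1B. Whether they are among the library's numbered sgRNAs is not known. Each had 1 match in the genome (GRCh37) beside an NGG protospacer-adjacent motif (PAM), which is in capitals.
SETD1A sgRNA 1: gcggaactacaagctcatcgTGG
SETD1A sgRNA 3: ttggacctgacatggcaacgGGG
SETD1B sgRNA 1: gtccagcaaccgcccggTGG
SETD1B sgRNA 2: ggcccttcgggcgagaggAGG
All 4 cut coding sequence near the start of their gene. In SETD1A they lie at chr16:30970103-30970122 (plus strand, exon 2 of 19) and chr16:30970451-30970470 (minus strand, exon 3). In SETD1B they lie at chr12:122243026-122243042 (plus strand, exon 3 of 17) and chr12:122242698-122242715 (plus strand, exon 2), and have 17 and 18 bases in place of 20.

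The HLA-B high sorted library held 34266318 matched reads, the high-screen control 22562241 and the low-screen control 98426251. The sort was sparse: 49.6% of all sgRNAs had a read in it, against 97.7% for the high-screen control and 93.4% for the low-screen control. A safe-targeting sgRNA cuts a genomic site of no known function, and the median one had 1 read in the sort, against 87 and 413 in these controls. An sgRNA with no read in the sort can therefore still stand for up to 3 reads, or 0.0875 CPM (reads scaled to the matched total of the library), and intervals below cover counting error or the spread over sgRNAs only, since PCR reads are not independent molecules. With 1 library per group, no difference has a replicate check.

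No member was called in the sort. The score used was redundant siRNA activity (RSA), which asks whether the sgRNAs of a gene crowd to an end of the ranking of all sgRNAs by log2 ratio. To be called, a gene needed an RSA p under 0.001 and 4 or more sgRNAs up to its best rank. In HLA-B high sorted over the high-screen control, 0 of 10 members were called enriched and 0 of 10 depleted, where 0.310% and 0.414% of the 20314 genes tested were called. The exact p of the score, taken for each gene under random ranks, was under 0.05 for depletion in 2 members (DPY30 and HCFC1) against 5.77% of all genes, and for enrichment in 0 members against 3.55%. Adjusted over all genes by Benjamini-Hochberg, the lowest exact p of a member was 0.798 for depletion (DPY30) and 1 for enrichment. These p-values are one-sided and compare the sgRNAs of a gene within a pair of libraries.

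For scale, the Menin gene MEN1 was called enriched in the same comparison, with a median log2 ratio of 5.33 over 8 sgRNAs and an exact adjusted p of 1.18e-08. The LEDGF gene PSIP1 had a median of 3.08 and an exact adjusted p of 0.00976, with 3 sgRNAs at its best rank, under the 4 needed for a call. Of its 8 sgRNAs tested, however, 6 lay above 1. The study asked for at least 4 enriched sgRNAs and named PSIP1 as a hit, and counting them at the best rank is the rule used here. KMT2A and KMT2B, the catalytic subunits that Menin binds, had medians of −3.81 and −7.20 and were not called. The KMT2B median was under that of every member, and 0.684% of genes lay lower. All 9 KMT2B sgRNAs tested lay below −1, and 6 of them had no sorted read. The exact p of KMT2B for depletion was 0.0251 (adjusted 0.839). The log2 ratio of an sgRNA without a sorted read follows its control reads alone. KMT2B sgRNAs tested had a median of 131 of these, against 48.5 for DPY30. With reads summed over sgRNAs, the KMT2B ratio was 0.0340, above DPY30 (0.00117) and RBBP5 (0.00209) and under the other members. Over the low-screen control the KMT2B median was −6.98, with 22.8% of genes lower.

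sgRNAs against the shared subunits were mostly missing from the sort. Of the 42 with 10 or more reads in the high-screen control, 33 had no read in HLA-B high sorted (78.6%, exact 95% Clopper-Pearson interval 63.2 to 89.7%). Of 34 against SETD1 subunits, 18 had none (52.9%, 35.1 to 70.2%), where 48.5% of gene-targeting and 47.6% of safe-targeting sgRNAs had none. The interval of the shared subunits lay above both backgrounds, and that of the SETD1 subunits held them, but the intervals of the sets overlap and their difference was not tested. sgRNAs of 1 gene share their target, and the intervals, which take sgRNAs as independent, may be too narrow.

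Members were also scarcer in the unsorted pool, which moves with the number missing. The median member sgRNA tested had 52.5 reads in the high-screen control, against 94 for all gene-targeting sgRNAs. Among sgRNAs with 10 to 49 reads there, 17 of 19 against shared subunits (89.5%) and 10 of 16 against SETD1 subunits (62.5%) were missing, against 67.3% of all gene-targeting sgRNAs. With 50 to 99 reads, 10 of 14 (71.4%) and 4 of 9 (44.4%) were missing, against 54.4%. With 100 or more reads, 6 of 9 (66.7%, 29.9 to 92.5%) and 4 of 9 (44.4%, 13.7 to 78.8%) were missing, against 35.0%. The share of the shared subunits was above the background in each range, but in all 3 ranges the background lay inside their interval (66.9 to 98.7% in the lowest and 41.9 to 91.6% in the next).

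**Figure D1:**
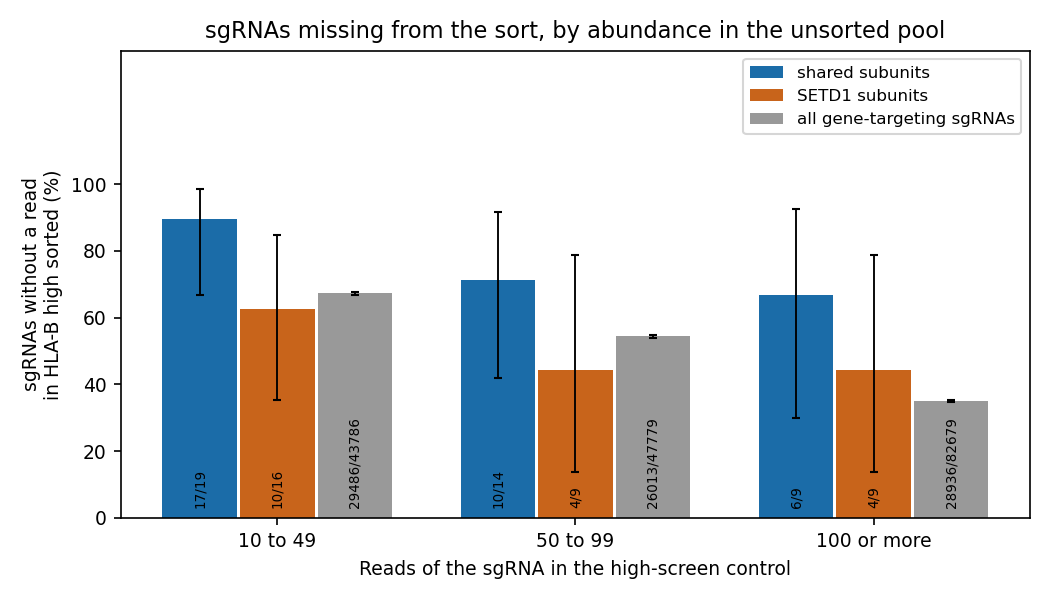
Percent of sgRNAs with no read in HLA-B high sorted (y axis), by the reads of the sgRNA in the high-screen control (x axis), for shared subunits, SETD1 subunits and all gene-targeting sgRNAs. Bars are shares with exact 95% intervals over sgRNAs and counts are printed in the bars. In the lowest range 17 of 19 shared-subunit sgRNAs were missing, against 67.3% of all gene-targeting sgRNAs.

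By log2 ratio the same sets differed less. Below −1 lay 36 of 42 shared-subunit sgRNAs (85.7%, 71.5 to 94.6%) and 26 of 34 SETD1-subunit sgRNAs (76.5%, 58.8 to 89.3%), against 70.8% of gene-targeting and 71.5% of safe-targeting sgRNAs. Above 1 lay 1 of 42 (2.38%) and 5 of 34 (14.7%), against 12.6% of gene-targeting sgRNAs. All 10 members had a gene median below −1, as did 90.7% of genes, so a negative median sets no member apart. The median over all genes was −4.54.

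**Figure D2:**
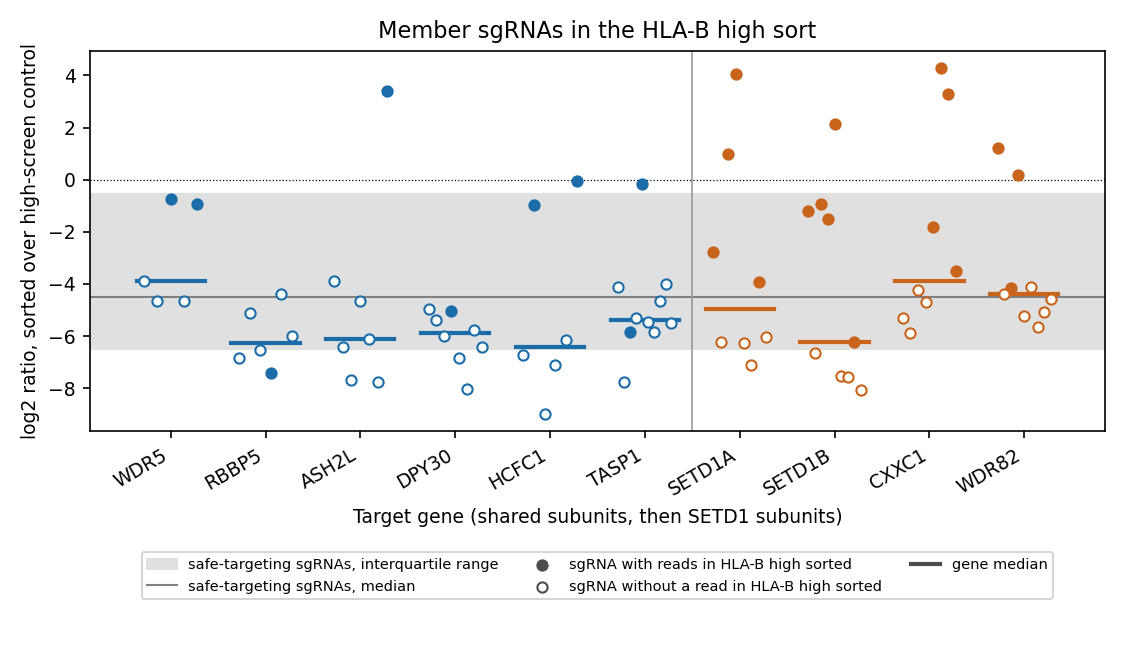
log2 ratio of HLA-B high sorted over the high-screen control (y axis) for each sgRNA with 10 or more control reads, by target gene (x axis). Filled points had reads in the sort, open points had none, thick bars are gene medians, and the grey band and line are the interquartile range and median (−4.49) of safe-targeting sgRNAs. A single ASH2L sgRNA and 5 sgRNAs of the SETD1 subunits lie above 1.

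WDR5 is the WD-repeat scaffold that docks the catalytic subunit and also serves the NSL and ATAC acetyltransferase complexes. The gene (ENSG00000196363, chr9:137000487-137025090, plus strand) had 8 sgRNAs. In HLA-B high sorted, 2 of them had reads, 230 and 49, against 255 and 63 in the high-screen control, and 6 had none. The sum was 8.14 CPM in HLA-B high sorted, 16.6 CPM in the high-screen control and 19.2 CPM in the low-screen control. The sorted share was 0.490 of the high-screen control (0.418 to 0.574, counting error only). Only 5 sgRNAs had enough control reads to test, with a median log2 ratio of −3.89.

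RBBP5 bridges WDR5 and ASH2L and helps form the active site. Its 8 sgRNAs (ENSG00000117222, chr1:205055270-205091143, minus strand) together had 2 reads in HLA-B high sorted, against 631 in the high-screen control and 3554 reads in the low-screen control. Both sorted reads came from sgRNA 4, the most abundant in the high-screen control at 360 reads. The summed ratio over the high-screen control was 0.00209 (0.000252 to 0.00757), and all 6 sgRNAs tested lay between −7.42 and −4.40.

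DPY30 binds ASH2L as a dimer and is needed for efficient H3K4 methylation. Its 9 sgRNAs (ENSG00000162961, chr2:32092878-32264874, minus strand) had 1 read in all in HLA-B high sorted, from sgRNA 5, against 565 in the high-screen control and 4986 reads in the low-screen control. That is 0.0292 CPM in the sort, against 25.0 and 50.7 CPM in the unsorted pools, the lowest sorted sum among the members. The summed ratio over the high-screen control was 0.00117 (2.95e-05 to 0.00652). The 8 sgRNAs tested all lay between −8.05 and −4.96, and the exact p for depletion was 0.0147 (adjusted 0.798).

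ASH2L stimulates the catalytic subunit together with RBBP5. The gene (ENSG00000129691, chr8:37963011-38001594, plus strand) had 9 sgRNAs, and all 1214 reads in HLA-B high sorted came from sgRNA 10, which had 74 in the high-screen control and 708 reads in the low-screen control. The other 8 had no sorted read, although 2 of them, with 172 and 162 reads, were its most abundant in the high-screen control. The sum was 35.4 CPM in HLA-B high sorted, 25.1 CPM in the high-screen control and 35.4 CPM in the low-screen control. The summed ratio of 1.41 (1.27 to 1.56) thus rests on 1 sgRNA, and the median log2 ratio over 7 sgRNAs was −6.11.

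HCFC1 is a large host cell factor that joins SETD1 and KMT2A/B complexes to transcription factors and also binds O-GlcNAc transferase. Among its 10 sgRNAs (ENSG00000172534, chrX:153213008-153237269, minus strand), sgRNA 8 had 128 reads in HLA-B high sorted against 87 in the high-screen control, and sgRNA 2 had 104 against 135. The other 8 had no sorted read, including sgRNA 3, with 401 reads in the high-screen control. The sum was 6.77 CPM in HLA-B high sorted, 38.7 CPM in the high-screen control and 22.5 CPM in the low-screen control. Its median of −6.43 over 6 sgRNAs was the lowest of the members. Without a sorted read, however, the log2 ratio of an sgRNA follows its control reads alone. The HCFC1 sgRNAs tested had a median of 97.5 high-screen control reads, against 48.5 for DPY30. By summed ratio HCFC1 (0.175) lay above DPY30 (0.00117), RBBP5 (0.00209) and TASP1 (0.0516). The exact p for depletion of HCFC1 was 0.0475 (adjusted 0.859), with 1 sgRNA at the best rank.

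TASP1 is the protease that cleaves KMT2A and KMT2B into their mature fragments and is no subunit of the assembled complex. Its 10 sgRNAs (ENSG00000089123, chr20:13370039-13619579, minus strand) had 37 reads in HLA-B high sorted, 36 of them from sgRNA 5, against 472 in the high-screen control and 3114 reads in the low-screen control. The summed ratio over the high-screen control was 0.0516 (0.0359 to 0.0722). The median over 10 sgRNAs was −5.39, and 9 of 10 lay below −1.

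Thus DPY30, RBBP5 and TASP1 had summed ratios between 0.00117 and 0.0516, HCFC1 (0.175) and WDR5 (0.490) had sorted reads from 2 sgRNAs each, and ASH2L had them from 1. The highest sorted reads of an sgRNA were 1534 for SETD1A, 1541 for SETD1B, 1355 for CXXC1 and 667 for WDR82. Among the shared subunits they were 1214 for ASH2L and 230 or fewer for the others. Neither the highest sorted reads per gene nor the summed ratio was computed for all genes. These values are therefore not read as a trait of either set. By sgRNA, 12.6% of all gene-targeting sgRNAs had a log2 ratio above 1 over the high-screen control.

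SETD1A, a catalytic subunit, lies on the plus strand (ENSG00000099381, chr16:30968615-30995985). Of its 10 sgRNAs, sgRNA 5 had 1534 reads in HLA-B high sorted, against 60 in the high-screen control and 291 reads in the low-screen control. sgRNA 4 had 259 sorted reads, against 85 and 211, sgRNA 1 had 9 and sgRNA 8 had 1. The other 6 had none, among them sgRNA 7, with 108 reads in the high-screen control. sgRNAs of this gene thus ran in opposite directions, between −7.10 and 4.06 on the log2 scale, with a median of −4.97 over 8. The summed ratio was 2.40 (2.17 to 2.65), with 85.1% of sorted reads from 1 sgRNA.

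SETD1B, the paralogous catalytic subunit (ENSG00000139718, chr12:122241915-122270562, plus strand), had sorted reads from 5 of 10 sgRNAs. sgRNA 6 had 1541 reads in HLA-B high sorted, against 231 in the high-screen control and 708 reads in the low-screen control. sgRNAs 4, 2, 5 and 9 had 101, 92, 11 and 1 sorted reads, and sgRNA 10 had none against 212 in the high-screen control. The sum was 51.0 CPM in HLA-B high sorted, 53.9 CPM in the high-screen control and 60.5 CPM in the low-screen control, and the ratio over the high-screen control was 0.945 (0.878 to 1.02). The median over 9 sgRNAs was −6.21.

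CXXC1 (CFP1) reads unmethylated CpG DNA and brings SETD1 to CpG islands. Of its 9 sgRNAs (ENSG00000154832, chr18:47808713-47814209, minus strand), sgRNA 8 had 1355 reads in HLA-B high sorted against 45 in the high-screen control, and sgRNA 9 had 850 against 57. sgRNA 6 had 116 sorted reads and none in the high-screen control, so it was not tested there. The sum of 68.8 CPM in HLA-B high sorted, against 14.5 CPM in the high-screen control and 31.5 CPM in the low-screen control, was the highest sorted sum of the members. The ratio over the high-screen control was 4.75 (4.23 to 5.35). Even so, 6 of 8 sgRNAs tested lay below −1, the median was −3.87, and the exact p for enrichment was 0.0539 (adjusted 1).

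WDR82 tethers SETD1 to RNA polymerase II phosphorylated at the start of genes and also belongs to the PP1-PNUTS phosphatase complex. Of its 10 sgRNAs (ENSG00000164091, chr3:52288450-52322036, minus strand), sgRNA 1 had 667 reads in HLA-B high sorted against 190 in the high-screen control, sgRNA 4 had 81 against 47 and sgRNA 3 had 4 against 61. The other 7 had none. The summed ratio was 1.13 (0.999 to 1.27), with 88.7% of sorted reads from 1 sgRNA, and the median over 9 sgRNAs was −4.40.

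**Figure D3:**
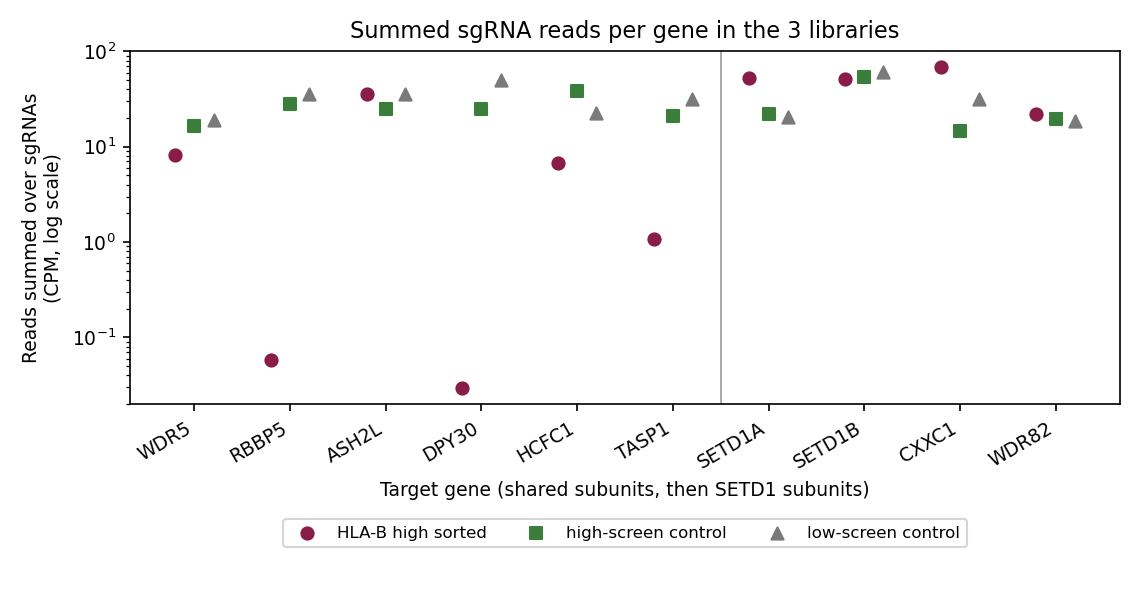
Reads summed over all sgRNAs of each gene (y axis, CPM, log scale) in HLA-B high sorted, the high-screen control and the low-screen control, by target gene (x axis). The sorted sums of DPY30 (0.0292 CPM) and RBBP5 (0.0584 CPM) lie far under their unsorted pools, and those of the 4 SETD1 subunits lie between 21.9 and 68.8 CPM. Sums were not computed for all genes, so how common such sums are is not known. In the sort 96166 of 189398 gene-targeting sgRNAs had no read, and the highest had 312796.

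Set against the low-screen control, which was sequenced more deeply, the sort gave the same calls for the members. Here 0 of 10 were called enriched and 0 of 10 depleted, where 0.370% and 0.596% of 20295 genes were. The exact p was under 0.05 for depletion in 2 members (DPY30 at 0.00825 and RBBP5 at 0.0158) against 5.76% of genes, and for enrichment in 0 against 3.65%. The lowest adjusted exact p was 0.769 for depletion (DPY30) and 1 for enrichment. The RSA p of DPY30 was 0.00120, just outside the threshold, with 9 of 9 sgRNAs at its best rank and a median of −8.04. This control comes from the other screen, and DPY30 was lower in the high-screen than in the low-screen control (median −1.59). Over the high-screen control, the pool of the same screen, its RSA p was 0.00243, and no setting called it. DPY30 passed the threshold over the low-screen control with a pseudocount of 0.5 (RSA p 0.000878) and with no count minimum (0.000565). It also passed without its most extreme sgRNA (0.000750). Those settings called 114 of 20295, 136 of 20381 and 220 of 20009 genes depleted, against 121 of 20295 in the main setting.

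Of the shared-subunit sgRNAs tested against the low-screen control, 37 of 45 (82.2%, 67.9 to 92.0%) had no sorted read, and of the SETD1-subunit sgRNAs 18 of 34 (52.9%), where 49.2% of gene-targeting sgRNAs had none. Below −1 lay 42 of 45 (93.3%) and 26 of 34 (76.5%), against 71.5% of gene-targeting sgRNAs. Above 1 lay 1 of 45 (2.22%) and 7 of 34 (20.6%), against 13.2%. Every member median was below −1, as were 91.4% of gene medians. Both comparisons use the same sorted library, so they are not independent.

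Split by reads in the low-screen control, all 16 shared-subunit sgRNAs with 10 to 199 reads were missing from the sort (79.4 to 100%), against 64.6% of gene-targeting sgRNAs, which lay outside that interval. Many of these 16 were already scarce in the high-screen control, the pool of the sort's own screen. HCFC1 sgRNAs 5, 6 and 9 and WDR5 sgRNA 7 had no read there. HCFC1 sgRNAs 1 and 7 and DPY30 sgRNA 4 had 83, 55 and 50, and the rest had between 1 and 19. The split does not take this into account, so it does not show that they were lost in the sort. With 200 to 499 reads 12 of 15 were missing (51.9 to 95.7%), against 54.4%, and with 500 or more 9 of 14 (35.1 to 87.2%), against 37.2%, so in these ranges the background lay inside the interval. Of the SETD1-subunit sgRNAs, 4 of 7, 10 of 18 and 4 of 9 were missing in these ranges from low to high, with the background inside each interval.

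The unsorted pools carry no sort and come from different screens, and what else differs between them cannot be told apart from the screen. In the high-screen control over the low-screen control, 0 of 10 members were called enriched and 0 of 10 depleted, where 0.801% and 0.703% of 20341 genes were. HCFC1 had an RSA p of 0.000575 for depletion, under the threshold of 0.001, but 3 sgRNAs at its best rank, under the 4 needed. The exact p was under 0.05 for depletion in 4 members (HCFC1, RBBP5, DPY30 and CXXC1) against 5.71% of genes, and for enrichment in 1 (HCFC1) against 5.96%. The lowest adjusted exact p was 0.598 in each direction, for HCFC1 in both. The HCFC1 scores rest on 3 sgRNAs for depletion and 2 for enrichment, each with no read in 1 of the pools. These passed the count minimum only through the pool where they had reads, so their extreme ratios follow from that filter. The HCFC1 p-values are therefore not read as support for a change in either direction.

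Of the gene medians between the pools, those of DPY30 and RBBP5 were lowest. DPY30 had a median log2 ratio of −1.59 over 9 sgRNAs, below which lay 1.14% of genes. RBBP5 had −1.20 (2.78% of genes lower) and WDR5 −1.19 (2.84%), with TASP1 at −0.98 (5.34%) and ASH2L at −0.74 (10.7%). Of the SETD1 subunits, CXXC1 had −0.88 (7.16%), WDR82 −0.24, SETD1B −0.22 and SETD1A 0.19. In all, 3 of 10 medians lay below −1, against 5.00% of genes, all of them shared subunits. For DPY30, the 95% interval of the median over sgRNAs reached from −2.62 to 0.38, and for WDR5, with 6 sgRNAs tested, from −5.68 to 5.70. With a count minimum of 1 or none, WDR5 had 8 sgRNAs and a median of 0.10, so its direction turned and 2 of 10 medians lay below −1.

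By sgRNA, 24 of 50 against shared subunits lay below −1 (48.0%, 33.7 to 62.6%) and 10 of 38 against SETD1 subunits (26.3%, 13.4 to 43.1%), where 23.7% of gene-targeting and 25.2% of safe-targeting sgRNAs did. Above 1 lay 10 of 50 and 7 of 38 (18.4%), against 22.6%. The interval of the shared subunits lay above the background on the low side, and the difference between the sets was not tested.

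HCFC1 was split within itself. Its sgRNAs 5, 6 and 9 had no read in the high-screen control, against 163, 199 and 67 in the low-screen control, whereas sgRNAs 2 and 4 had 135 and 108 in the high-screen control and none in the low-screen control. The remaining sgRNAs tested lay between −0.33 and 2.47, and the gene median was 0.64. Over all members, 6 of 88 sgRNAs tested had no read in the high-screen control (6.82%, 2.54 to 14.3%) and 8 of 88 had none in the low-screen control (9.09%, 4.01 to 17.1%), against 1.97% and 5.21% of gene-targeting sgRNAs. Besides HCFC1, those missing from the high-screen control were sgRNAs of SETD1A (293 reads in the low-screen control), WDR5 (82) and CXXC1 (76). Of those missing from the low-screen control, SETD1B sgRNA 7 had 146 reads in the high-screen control, with fewer for TASP1 sgRNAs 6 and 10 (34 and 35), WDR82 sgRNA 7 (39), SETD1A sgRNA 8 (21) and WDR5 sgRNA 2 (19).

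**Figure D4:**
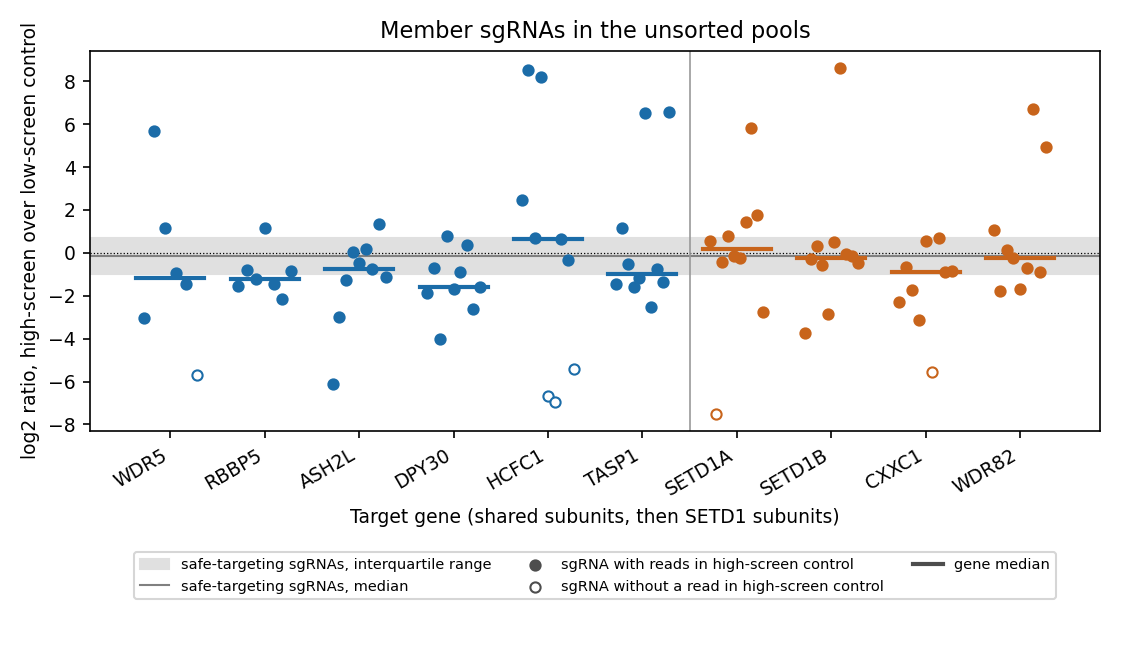
log2 ratio of the high-screen control over the low-screen control (y axis) for each sgRNA with at least 10 reads in either pool, by target gene (x axis). Open points had no read in the high-screen control, thick bars are gene medians, and the grey band and line are the interquartile range and median of safe-targeting sgRNAs. DPY30 has the lowest gene median (−1.59), and HCFC1 sgRNAs reach from −6.95 to 8.50.

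Levels within a pool put most members under the median safe-targeting sgRNA. The median WDR5 sgRNA had 15 reads in the high-screen control, 0.172 of the safe-targeting median, and 1.63% of genes lay lower. It was followed in that pool by WDR82 (0.316), CXXC1 (0.356), TASP1 (0.374), RBBP5 (0.443), DPY30 (0.540), ASH2L (0.621), SETD1A (0.632), HCFC1 (0.793) and SETD1B (1.53). In the low-screen control HCFC1 was lowest (0.266), followed by WDR5 (0.295), SETD1A (0.484), TASP1 (0.518), WDR82 (0.547), CXXC1 (0.598), ASH2L (0.712), RBBP5 (0.730), DPY30 (1.59) and SETD1B (1.66). sgRNAs of each gene spread so widely (from 1 to 209 reads for DPY30 in the high-screen control) that neighbours in these orders do not differ beyond their spread. The starting abundance of each sgRNA in the library was not analysed here, so a low level in a pool cannot be told apart from a low start.

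DPY30 lay on opposite sides of the safe-targeting median. Its level was under it in the high-screen control (47 reads at the median sgRNA, 12.8% of genes lower) and above it in the low-screen control (656 reads, 92.4% of genes lower). SETD1B was above it in both pools (1.53 and 1.66). Against non-targeting sgRNAs, which were more abundant, SETD1B was at 0.867 in the high-screen control, below that reference, and at 1.10 in the low-screen control, and DPY30 was at 0.305 and 1.05.

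Among 45 other genes of the pathway in 7 lists, calls were few. Of the 4 KMT2A/B-specific genes, MEN1 was called enriched in HLA-B high sorted over each control and PSIP1 over the low-screen control (median 2.25), and 0 of 4 were called depleted. PAXIP1, a subunit of the KMT2C/D complexes, was called depleted in the high-screen control over the low-screen control (median −1.88), as 1 of 6 genes of that list. None of the genes of the lists of H3K4 demethylases (4), H2B ubiquitin ligase and PAF1 complex (11), WDR82 partners outside SETD1 (6), WDR5 and HCFC1 partners outside the KMT2 complexes (12) and further TASP1 substrates (2) was called in any of the 3 comparisons. In HLA-B high sorted over the high-screen control, the median of gene medians was −5.62 for the WDR5 and HCFC1 partners and −3.02 for the WDR82 partners, beside −6.00 for the shared subunits, −4.68 for the SETD1 subunits and −4.54 for all genes.

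Likeness of pattern was measured as the distance between genes in mean log2 level over the safe-targeting median across the 3 libraries, among 53 candidates. WDR82 lay nearest to GTF2A1 (0.27), ASH2L and DPY30 nearest to KANSL3 (0.46 and 0.74), SETD1B to HCFC2 (0.50), HCFC1 to WDR82 (0.65), WDR5 to HCFC1 (0.69) and RBBP5 to KDM5A (0.70). TASP1 (nearest RBBP5, 1.04), SETD1A (PPP1CB, 1.06) and CXXC1 (PPP1CC, 1.06) had no candidate within 1 log2 unit. These distances rest on 3 libraries of 1 experiment and are given as a description.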

How the data were processed

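The deposited files hold raw counts of reads for each sgRNA. The authors made them by trimming reads and mapping them with Bowtie2 to the sgRNA sequences, with multi-aligning reads removed and no genome build involved. bcl2fastq and cutadapt are also named in the submitters' processing notes, without versions. An sgRNA absent from a library was given 0. Reads matched to no sgRNA (21.9% in the sort, 20.6% in the high-screen control, 12.1% in the low-screen control) were left out.

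Counts were scaled to the mean matched total of the libraries compared, and log2 ratios were taken with a pseudocount of 1 where an sgRNA reached 10 reads in the control (either pool for the unsorted pools). RSA is the method the study named. It was fitted over all genes, and its code was tested on simulated counts. Those counts did not model the loss of sgRNAs seen in this sort, so they do not show how RSA behaves in it. The score was also set against its exact distribution under random ranks, and p-values were adjusted by Benjamini-Hochberg. Gene and sgRNA positions came from GENCODE release 44 lifted to GRCh37 and from that genome. Python 3.11.15, numpy 2.4.6, pandas 2.3.3, scipy 1.17.1 and matplotlib 3.10.9 were used. Members, lists and tests were chosen with earlier results of these data known. All 10 members are named, with MEN1, PSIP1, KMT2A and KMT2B for scale, and other list genes only where called or nearest in pattern. Alternatives changed the pseudocount, count minimum, call rule, centring and reference sgRNAs. The split by control reads was added after seeing the data. A further sequence is not reported here.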

Additional observations from a re-analysis of the deposited data

How the results depend on the processing

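Of 48 recomputed counts of called members, 45 were unchanged at 0. The exceptions were all DPY30, called depleted (1 member) in HLA-B high sorted over the low-screen control. They came with a pseudocount of 0.5, with no count minimum and without the most extreme sgRNA. Under these settings 114 of 20295, 136 of 20381 and 220 of 20009 genes were called depleted, against 121 of 20295 in the main setting. With a pseudocount of 5 or a minimum of 1 or 30 DPY30 was not called. Of 36 recomputed shares of sgRNAs below −1, 31 stayed inside the interval of the main value. Centring on safe-targeting sgRNAs gave 50% for the shared subunits and 32.4% for the SETD1 subunits over the high-screen control, and 64.4% and 50% over the low-screen control, because it subtracts the shift of the median safe-targeting sgRNA. With no count minimum the share of the shared subunits over the low-screen control was 77.8% (42 of 54), since sgRNAs nearly absent from that control entered. Of 210 recomputed gene medians, 184 stayed inside their interval and 26 did not. Summed CPM gave 4 of 10 members above 0 in the sort over either control, where all 10 medians were below 0. Centring gave 3 (WDR5, CXXC1 and WDR82) above 0 over the high-screen control and 1 (CXXC1) over the low-screen control. Between the pools the median of WDR5 turned to 0.10 with a count minimum of 1 or none and that of SETD1A to −0.15 with a minimum of 30, and summed CPM gave 0.06 for WDR82. All 40 levels set against other reference sgRNAs stayed inside the spread of the member, but that spread is wide and the rule is hard to fail. Levels against non-targeting sgRNAs were lower, as for WDR5 (0.172 to 0.0974) and RBBP5 (0.443 to 0.25) in the high-screen control. SETD1B fell under that reference in the high-screen control (0.867). No paired analysis was possible because each group holds 1 library, and no library could be left out. Few reads per sgRNA limit the sort, in which 49.6% of sgRNAs were seen and the median safe-targeting sgRNA had 1 read.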
